A study of Bos taurus with 5 samples.

Results

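FSHR (the receptor for follicle-stimulating hormone, FSH), LHCGR (the receptor for luteinizing hormone, LH), TRIB2 (the tribbles pseudokinase that the study calls TRB2) and GJA1 (the gap junction protein connexin 43) were examined in the walls of bovine ovarian follicles. The probes were chosen by RefSeq accession, NM_174061 for FSHR, NM_174381 for LHCGR, NM_178317 for TRIB2 and NM_174068 for GJA1. Each accession had 1 probe, so the members are 4 of the 10163 single-spot probes on the array and 4 of 1364 genes that could be given a symbol. FSHR and TRIB2 were listed by the study as high in the largest follicles on these same arrays, so the direction of their difference is not independent evidence.

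Follicles came from both ovaries of pregnant Japanese Black cows, and neither the age of the cows nor the phase of the follicular wave was given in the labels. The largest follicle (F1, n = 3) was compared with the second-largest (F2, n = 2) to find genes whose RNA differs with follicular status. Stroma and theca externa had been stripped off, and RNA of the whole remaining follicle was labelled with Cy3 and hybridized to 1 one-color array per follicle. Some cows contributed a follicle to each group. Which follicles share a cow is not given in the labels, so the follicles were treated as independent, and p-values measure only the spread between these 5 samples.

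In the follicular wall, granulosa cells carry the FSH receptor from early growth on, and theca cells carry the LH receptor. Granulosa cells acquire LH receptors when a dominant follicle is selected and shifts its dependence from FSH to LH. Both receptors couple mainly to Gs, which activates adenylyl cyclase, cyclic AMP and protein kinase A. Tribbles proteins lack ordinary kinase activity and act as adaptors that bring the ubiquitin ligase COP1 to targets such as C/EBP transcription factors and that also bind MAPK and AKT pathway kinases. Connexin 43 forms the channels through which neighbouring granulosa cells exchange small molecules.

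The probes on which the values rest were 60 bases long, and the first 30 bases of each are shown, 5′ to 3′ as in the deposited files, to identify what was measured. All letters are in lower case because no part of a probe is singled out.
FSHR: atttaatctccctggcacatccataaggta
LHCGR: aggcaaaaaagactctctacctagctcaaa
TRIB2: tgacatgcatggtgggaatctatggcctct
GJA1: aaactgctgccatgttcagcttcattgcat
The GC content of the whole probe was 35% for FSHR, 45% for LHCGR, 45% for TRIB2 and 43.3% for GJA1, against a median of 43.3% over all probes. No stretch of 20 bases of these probes recurred in any other probe (0 probes for each). FSHR and LHCGR are neighbouring protein-coding genes in the RefSeq annotation of assembly ARS-UCD2.0. The position of the probes in exons or untranslated regions was not analysed here.

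Signals are the processed intensity of a spot divided by the median intensity of the 100 GAPDH spots on the same array (relative signal). The GAPDH median ranged from 869 to 1411 over the F1 arrays and from 999 to 1255 over the F2 arrays, and the spots varied by 6.54% to 15.8% (coefficient of variation) within an array. The scanner software marked 5465 to 5855 probes of an array as well above background (called detected here) and 30 to 48 as saturated, meaning that the spot had reached the upper limit of the scanner. F1 and F2 were compared with limma on log2 relative signals over the 5528 probes that all F1 arrays or all F2 arrays, or both, showed well above background. All 4 members passed this filter, FSHR and LHCGR through the F1 alone, so for these 2 the filter itself favours a difference.

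All 4 genes had higher signals in every F1 than in both F2, and each passed the test (limma adjusted p under 0.05). Over all 5528 probes, 11.5% were called in either direction, made up of 6.39% of all probes higher in the F1 and 5.08% in the opposite direction. F1 signals lay entirely above F2 signals in 33.4% of the probes, so the absence of overlap is in itself a common pattern on these arrays. The differences were of unequal firmness. FSHR and TRIB2 had wide gaps, GJA1 had a smaller gap that lost the call without 1 of the F2, and LHCGR was measured close to the background. The exact permutation test over the 3 F1 and 2 F2 gave 0.1 for each gene, the smallest p it can reach in this design.

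**Figure D1:**
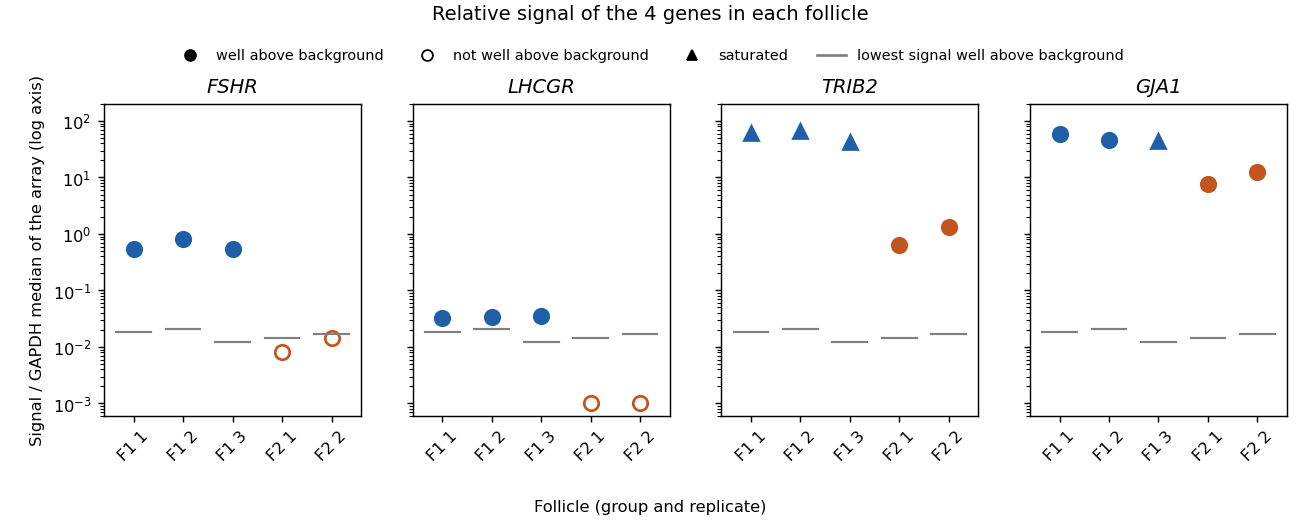
Relative signal (spot over the GAPDH median of its array, log axis) of FSHR, LHCGR, TRIB2 and GJA1 in each of the 3 F1 (blue) and 2 F2 (orange). Open symbols are not well above background, triangles are saturated, grey lines mark the weakest signal that each array flagged as well above background, and the LHCGR signals of the F2, which were below 0, are drawn at the floor of 0.001. In each gene the F1 lie above both F2.

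FSHR, which binds FSH on granulosa cells, had relative signals of 0.543, 0.827 and 0.545 in F1 replicates 1, 2 and 3. In F2 replicates 1 and 2 the relative signals were 0.00816 and 0.0141. The 3 F1 thus lay within 1.52-fold of each other, and their lowest signal was 38.4 times the highest of the F2. Neither F2 was flagged as detected, and their intensities of 10.2 and 14.1 were 1.58 and 1.54 standard deviations above the mean of the 79 negative control spots, so FSHR was not detected there at the sensitivity of the array. The mean relative signal of the F1 was 0.638 ± 0.163 (SD, n = 3), at least 40.3-fold higher than in the F2. For this bound each F2 was set at the weakest signal that its array still flagged as detected. The log2 difference F1 minus F2 was 5.86 with a standard error of 0.37 (limma adjusted p = 0.000331). This log2 value uses the F2 signals as measured and therefore depends on spots near background. With normexp background correction, which here added an offset of 50 to all signals, it was 2.61. RNA came from whole follicular walls, so fewer granulosa cells and less FSHR RNA per cell cannot be told apart in this or any result below.

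LHCGR, the receptor of LH, was measured too close to the background for a firm size of the difference. Its relative signals were 0.0329, 0.0335 and 0.0352 among the F1 against -0.00024 and -0.00114 among the F2. A negative value means that the spot was dimmer than the background subtracted from it. The F1 were almost equal (0.0339 ± 0.00119, SD, n = 3), and both F2 were at the level of the negative controls. All 3 F1 were well above background, with intensities of 32.4, 29.1 and 49.7, but these were only 3.56, 3.44 and 5.55 standard deviations above the negative controls of their arrays. The brightest negative control spot had 22.8, 26.0 and 25.4 on these arrays.

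With the F1 signals taken as measured, the F1 exceeded the F2 in LHCGR by at least 2.18-fold. For this bound each F2 was set at the weakest signal that its array flagged as detected. The bound leaves out the error of the F1 signals, which were weak themselves. The log2 difference in limma was 5.08 (standard error 0.25, adjusted p = 0.000138), but its size was set by the floor of 0.001 of the GAPDH median at which both F2 lay. With a floor of 0.01 it was 1.76 (limma adjusted p = 0.00500), and with the floor at the weakest detected signal of each array 1.12 (limma adjusted p = 0.0308). The standard error too rests on both F2 having been raised to the same floor, where they have no spread. With normexp the log2 difference was 0.56, with a 95% interval from -0.07 to 1.18, and the call was lost (limma adjusted p = 0.289). The whole wall was assayed, so LHCGR of theca and of granulosa cells was not separated.

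TRIB2 had relative signals of 61.5, 67.8 and 42.4 among the F1 against 0.645 and 1.35 among the F2. Both F2 were well above background, so TRIB2 RNA was detected in all 5 follicles. All 3 F1 spots were saturated. Their intensities of 60441, 58861 and 59867 differed by only 2.68%, whereas the GAPDH medians of the 3 arrays differed by 1.62-fold and the relative signals by 1.60-fold. The order of the F1 is therefore not a measured order of TRIB2, and the spread of 57.2 ± 13.2 (SD, n = 3) is largely that of the GAPDH median. The F2 differed by 2.10-fold from each other, and the lowest F1 signal was 31.4 times the highest F2 signal. With the F1 signals capped by saturation, the F1 exceeded the F2 in TRIB2 by at least 60.1-fold as a ratio of geometric means, or 57.3-fold as a ratio of arithmetic means (log2 difference 5.91, standard error 0.41, limma adjusted p = 0.000518). Leaving out F2 replicate 1 lowered the bound to 41.5-fold (adjusted p = 0.0195 in limma), and leaving out F2 replicate 2 raised it to 87.0-fold (adjusted p = 0.00996 in limma).

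GJA1, the main connexin of granulosa cells, had relative signals of 58.0, 45.9 and 43.9 among the F1 against 7.67 and 12.7 among the F2. The groups did not overlap, and the lowest F1 signal, a saturated one, was 3.45 times the highest F2 signal. Connexin 43 RNA was thus well above background in both groups, unlike that of either gonadotropin receptor, which was not detected in the F2. The spot of F1 replicate 3 was saturated, and the others were not. The F1 averaged a relative signal of 49.3 ± 7.66 (SD, n = 3) and the F2 one of 10.2 ± 3.56 (SD, n = 2). With 1 F1 capped by saturation, the fold was at least 4.95 and the log2 difference 2.31 (standard error 0.33, limma adjusted p = 0.00906). The 95% interval of the fit, 2.84 to 8.63, takes the saturated spot at its value and so does not limit the fold from above. In the deposited normalized values, where the saturated spot is empty, the fold was 5.23 (limma adjusted p = 0.00718). The call rested on F2 replicate 1: without it the log2 difference was 1.94 and the limma adjusted p 0.10, and without F2 replicate 2 the difference was 2.67 and the adjusted p 0.0428.

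**Figure D2:**
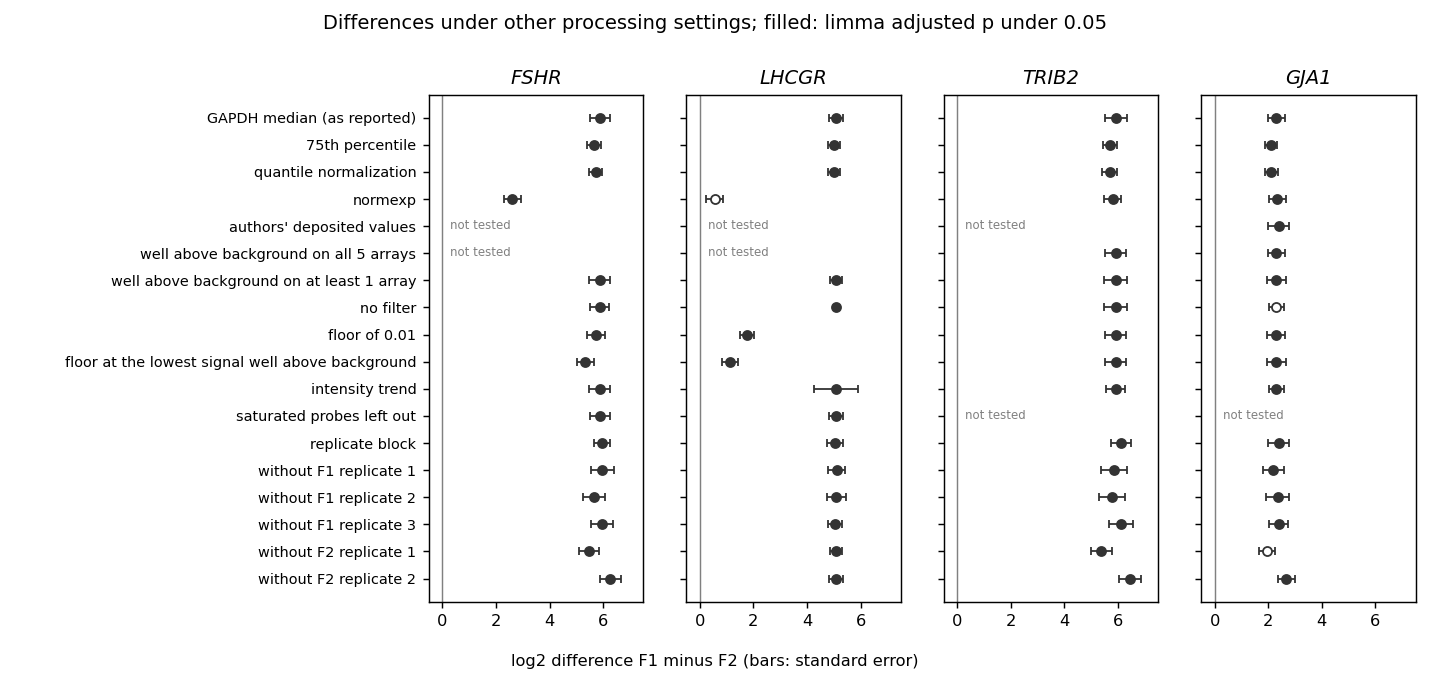
Log2 difference F1 minus F2 of each gene (points, with standard errors as bars) under the reported setting and each alternative, where filled points have a limma adjusted p under 0.05. All values lie above 0, LHCGR falls from 5.08 to 0.56 with the treatment of weak signals, and the open points are LHCGR with normexp and GJA1 with no filter and without F2 replicate 1.

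The median log2 difference of all probes tested was 0.27 after division by the GAPDH median and 0.06 when arrays were scaled to their 75th percentile. With that scaling the log2 difference was 5.65 for FSHR, 5.01 for LHCGR, 5.70 for TRIB2 and 2.10 for GJA1, each still with a limma adjusted p under 0.05.

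Profiles over the 5 follicles were compared by the root mean square (RMS) difference of log2 relative signals, each profile centred on its own mean and undetected signals set to the weakest detected one of the array. Among 832 probes with a gene symbol, the profiles most like FSHR were those of INHA, the alpha subunit of inhibin (RMS 0.32), FST, the activin-binding protein follistatin (0.41), and TRIB2 (0.44), where the median candidate was at 2.56. TRIB2 was nearest to FST (0.25), PLA2G1B, a secreted phospholipase (0.26), and FSHR (0.44). FSHR and TRIB2 were thus each other's third-nearest named gene. Like TRIB2, INHA was saturated in all 3 F1, and FST was saturated in 2. The saturated F1 values are a ceiling divided by the GAPDH median, and both F2 of FSHR were set at the weakest detected signal. The likeness of FSHR to these genes within the F1 or within the F2 is therefore not a measured one. GJA1 was nearest to DAG1, dystroglycan (RMS 0.15), NR5A1, the transcription factor steroidogenic factor 1 (0.16), and NDUFS4, a subunit of respiratory complex I (0.19).

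For LHCGR the nearest profiles were PLOD1, a collagen lysyl hydroxylase (RMS 0.12), PRDX3, a mitochondrial peroxidase (0.13), and FYTTD1, an mRNA export factor (0.14). With both F2 raised to the lowest measurable signal, the LHCGR profile spanned a log2 difference of only 1.12 and many probes came near it: 11 probes without a symbol were nearer than PLOD1, against 0 for the nearest gene of FSHR and of TRIB2. The 5 points of a profile fall in 2 groups, so genes with a similar difference between F1 and F2 come out as alike.

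Other genes of the pathways were taken from 5 lists. Of 227 genes on them, 68 were matched to a probe and 49 were tested. In limma 13 (26.5%) were called in favour of the F1, 7 (14.3%) in favour of the F2 and 29 in neither direction, where the shares over all probes were 6.39% and 5.08%. The study had listed CYP19A1, INHA, INHBA, FST, TNFAIP6, CITED1, PLAUR and TIMP1 as differing on these same arrays. FOS, of the LH-surge list, was also listed by the study as high in the F1. Here it was not called, and its log2 difference was -1.21 (limma adjusted p = 0.519). The lists were chosen with earlier results of these data known, so the shares are not independent evidence. The 20 called genes had the same direction with the 75th percentile, quantile normalization and normexp. Without F2 replicate 1, however, 5 were called in favour of the F1 and 4 in favour of the F2, and without F1 replicate 1 the first count was 8.

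Genes of the signalling chain below the receptors were called in both directions. Their list held G proteins, adenylyl cyclases, protein kinase A, receptor regulators, CREB1, phosphodiesterases and RAP1 proteins. It also held the hormone subunits and TSHR, the thyrotropin receptor. Of 26 genes of the list with a probe, 16 were tested, LHB among them. In limma 2 (12.5%) were called in favour of the F1 and 2 (12.5%) of the F2, where the shares over all probes were 6.39% and 5.08%. The median log2 difference was 0.03 against 0.27 over all probes. PRKACA, the catalytic subunit of protein kinase A, had relative signals of 0.430, 0.446 and 0.422 among the F1 against 0.423 and 0.575 among the F2 (log2 difference -0.19, standard error 0.28, limma adjusted p = 0.678). The groups overlapped.

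PRKAR2B, a regulatory subunit of protein kinase A that FSH is known to induce in granulosa cells, had 1.32, 1.62 and 1.28 among the F1 against 0.163 and 0.551 among the F2. It was higher in the F1 by 4.66-fold (adjusted p = 0.0450 in limma). GNG5, a G protein gamma subunit, was higher in the F1 by 3.12-fold (adjusted p = 0.0355 in limma). GNG2, another gamma subunit, went the other way, with 0.226, 0.322 and 0.341 among the F1 against 4.29 and 2.16 among the F2 (log2 difference -3.38, limma adjusted p = 0.00423). ADCY7, an adenylyl cyclase, had 0.0384, 0.0210 and 0.0293 among the F1 against 0.123 and 0.220 among the F2 (log2 difference -2.52, limma adjusted p = 0.0131). Both gamma subunits and the cyclase were thus detected in all 5 follicles. ADCY1 was well above background in F2 replicate 2 alone and was not tested.

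Among the hormone subunits of the same list, CGA and FSHB were not well above background in any follicle. The LHB probe was well above background in all 5, with 0.278, 0.189 and 0.129 among the F1 against 0.101 and 0.155 among the F2, and did not pass the test (limma adjusted p = 0.372).

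Of the genes tied to tribbles proteins, TRIB1 and TRIB3 are not analysed here. CEBPB, a C/EBP factor, had 0.676, 0.280 and 0.295 among the F1 against 0.158 and 0.291 among the F2, so the groups overlapped (log2 difference 0.83, limma adjusted p = 0.306). Of 5 genes tested in this list 1 was called, PIK3R1, the regulatory subunit of PI3 kinase, which was higher in the F1 by 2.80-fold (adjusted p = 0.0416 in limma). Over all probes 6.39% were called in favour of the F1. The list had a median log2 difference of 0.11, below the 0.27 of all probes.

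Of 48 genes on the connexin and junction list 9 were matched to a probe. Among the other connexins only GJB1 and GJD2 were matched, and they gave little signal. The remaining connexins are not covered here. GJB1 was well above background in 2 F1 and 1 F2 and was not tested, and GJD2 was undetected in all 5 follicles. Of 7 junction genes tested, 0 were called higher in the F1 in limma, and their median log2 difference was 0.72. CLDN1, a tight junction claudin, was undetected in the 3 F1 and had 0.218 and 0.353 in the F2. It was higher in the F2 by at least 16.6-fold (adjusted p = 7.43e-05 in limma). CLDN1 passed the filter through the F2 alone, and its p-value rests on 3 negative F1 signals having been raised to the same floor.

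Genes known to respond to FSH in granulosa cells were mostly higher in the F1. The 14 tested had a median log2 difference of 2.51. Of them limma called 9 (64.3%) in favour of the F1 and 0 in favour of the F2, against 6.39% and 5.08% of all probes. Besides PRKAR2B these were CYP19A1 (aromatase), INHBB and INHBA (activin beta subunits), INHA, FST, VCAN (the proteoglycan versican), SERPINE2 (a protease inhibitor) and NR5A1. The log2 difference was 2.20 for NR5A1, 2.22 for PRKAR2B and 3.22 for VCAN, which were detected in all follicles without saturation. The other 6 have only bounds, from at least 6.93-fold for SERPINE2 to at least 541-fold for CYP19A1. INHA, INHBA and SERPINE2 were saturated in 3 F1 and FST in 2, INHBB was undetected in both F2 and CYP19A1 in 1. INHBB and CYP19A1 passed the filter through the F1 alone. The study had already reported CYP19A1, INHA, INHBA and FST as high in the F1 on these same arrays. Of the steroidogenic genes of this list, CYP11A1, HSD3B1 and STAR did not pass the test. STAR, the cholesterol transporter, had 5.56, 3.14 and 5.33 among the F1 against 16.1 and 9.91 among the F2 (log2 difference -1.48, limma adjusted p = 0.0593). ESR2, estrogen receptor beta, had a log2 difference of 1.64 and also fell short (limma adjusted p = 0.113).

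Genes induced in follicles by the LH surge were called in both directions. Of 9 tested, 2 (22.2%) were called in favour of the F1 and 4 (44.4%) in favour of the F2, against 6.39% and 5.08% of all probes. The median log2 difference of the list was -2.11. TNFAIP6, a hyaluronan-binding protein of the cumulus matrix, had 1.04, 0.151 and 1.14 in the F1, reached the detection flag in a single F2 (1 of 2) and was called higher in the F1 (limma adjusted p = 0.0435). CITED1, a transcriptional coregulator, was higher in the F1 by 16.4-fold (adjusted p = 0.00243 in limma). Higher in the F2 were PLAUR, PLAU and PLAT, all of the plasminogen activator system, and TIMP1, an inhibitor of metalloproteinases, with log2 differences from -4.16 for TIMP1 to -2.11 for PLAU. PLAUR, undetected in 1 F1, was higher in the F2 by at least 83.8-fold. It passed the filter through the F2 alone, and TNFAIP6 through the F1 alone.

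**Figure D3:**
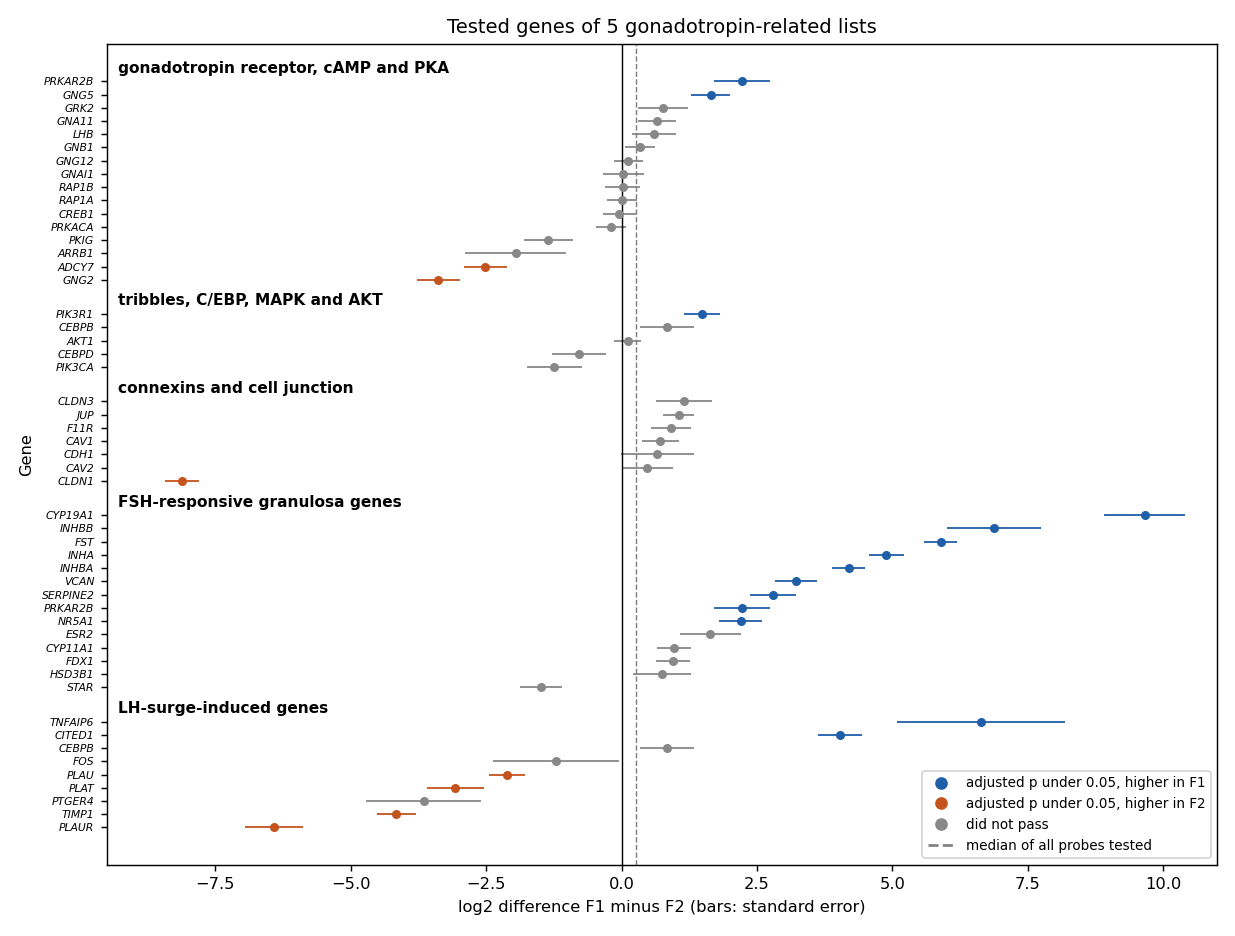
Log2 difference F1 minus F2 with its standard error for every tested gene of the 5 lists, colored by the limma call, with the median of all probes tested (0.27) as a dashed line. FSH-responsive genes lie mostly to the right and LH-surge genes on both sides. Genes of the cyclic AMP chain also lie on both sides, with a median of 0.03. Some points, among them INHBB, CYP19A1 and CLDN1 with undetected signals and INHA and INHBA with saturated ones, stand for differences known only as bounds.

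Markers of the cell types of the wall did not all go the same way. To set beside the counts below, 6.39% of all probes were called in favour of the F1 and 5.08% in favour of the F2. Of 12 genes on the granulosa list only 7 were matched to a probe and tested. Limma called all 7 in favour of the F1, with a summed relative signal of 221 to 307 against 13.3 to 20.4 among the F2. The unmatched genes of the list are not covered by this count. KRT8, a keratin that the study listed with the genes of its F2 cluster, was not among the 7. Of the 7 tested markers 6 are also on the list of FSH-responsive genes. The F1 sum is capped, since INHA, INHBA, FST and SERPINE2 were saturated in 2 or 3 of the F1, so its range is not a measured spread of these markers. Of 5 theca interna markers tested 2 were higher in the F1, CYP17A1 and INSL3 (sum of the list 69.3 to 105 against 30.1 to 33.4, with INSL3 saturated in 2 F1). Of 4 leukocyte markers tested 3 were higher in the F2, CD14, CD3E and TYROBP. The sum of the list, 0.894 to 1.0 against 1.52 to 1.79, was mostly ITGB2, which was not called (limma adjusted p = 0.217). CD3E passed the filter through the F2 alone, with signals near background there (0.0337 and 0.0242). It was undetected in the F1, where negative signals were raised to the floor, and its fold was at least 1.71. Of 4 stroma markers 1 was higher in the F2, LUM, and 0 of 3 endothelial markers were called in limma. The sum of the stroma list, 5.70 to 9.51 against 10.1 to 17.1, was mostly DCN, which was not called (limma adjusted p = 0.278). The 1 oocyte marker tested, ZP3, was not called, and 2 erythrocyte probes were undetected. The part of these markers in the differences of FSHR, LHCGR, TRIB2 and GJA1 was not tested.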

How the data were processed

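The authors scanned 1 one-color array per follicle, and the deposited scanner files (Feature Extraction 9.5.3.1 per the file headers) give for each spot the intensity after background subtraction, the mean and background intensities before it, and marks for detection above background, saturation and outlying pixels. A second deposited table holds the ratio of each intensity to the GAPDH median of its array, with spots below background or saturated left empty. Here each processed intensity was divided by the GAPDH median (100 spots), values under 0.001 of it were raised to that floor, and log2 was taken. Saturated spots were kept, while control and GAPDH spots and a spot marked as outlying (1 in all) were not used. Groups came from the sample titles. F1 and F2 were compared with lmFit and eBayes of limma 3.58.1 (R 4.3.3), two-sided, with Benjamini-Hochberg adjustment over 5528 probes and a threshold of 0.05. Other steps used Python 3.11.15. The procedure was tested on simulated data.

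The fold is a bound where any array of the bright group was saturated or any array of the dim group fell short of the background flag. The bound is the bright group's mean log2 signal minus the dim group's, with saturated spots at their value. Every array of the dim group takes the higher of the signal of the probe and the array's lowest signal well above background (16.6 to 18.2 in intensity). The number of arrays limits the precision.

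Probes carry accessions, of which 1415 are RefSeq mRNAs, and a RefSeq gene table (assembly ARS-UCD2.0) gave 1364 of these a symbol. Named are the members, the called genes of each list (at most 8 in each direction), direct partners of a member whether called or not, and the 3 profiles most like each member. LHB, CGA, FSHB, STAR, CYP11A1, HSD3B1, ESR2, FOS and the cell type markers were named after their values had been seen. The members and lists were chosen with earlier results of these data known, and 1 gene of a list is not reported here. No array shared its slide with another and all were scanned on the same day, so neither could serve as a block. The alternatives tried are named in the closing section. QPCR and in situ hybridization are not analysed here.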

Additional observations from a re-analysis of the deposited data

How the results depend on the processing

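Each gene was recomputed under 15 alternatives, 16 for GJA1, and the direction was towards the F1 in all of them. FSHR kept its call in 15 (log2 difference 2.61 with normexp to 6.26), TRIB2 in 15 (5.37 to 6.44), LHCGR in 14 of 15 and GJA1 in 14 of 16. LHCGR lost it with normexp (0.56, limma adjusted p = 0.289) and GJA1 with no filter on weak probes (2.31, limma adjusted p = 0.0707), where more probes are tested, and without F2 replicate 1. With each follicle left out in turn, FSHR ranged from 5.47 to 6.26, LHCGR from 5.05 to 5.10, TRIB2 from 5.37 to 6.44 and GJA1 from 1.94 to 2.67. The narrow range of LHCGR was set by the floor at which both F2 lay and does not measure stability. Its bound ranged from 2.03-fold to 2.34-fold. With 1 F2 left, that follicle is taken to vary like the F1. FSHR and LHCGR were not tested under the filter that asks for detection on all 5 arrays or in the deposited ratios, where their F2 values are empty, and TRIB2 was empty there in the F1. TRIB2 and GJA1 drop out when saturated probes are left out.

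The count of 634 called probes was 346 with a filter that asks for detection on at least 1 array and 214 with no filter, and 160 to 550 with each follicle left out (344 without F1 replicate 1, 160 without F2 replicate 1 and 199 without F2 replicate 2). List genes higher in the F1 (13) numbered 8 and 4 with those 2 filters and 5 to 12 with a follicle left out (8 without F1 replicate 1, 5 without F2 replicate 1). List genes higher in the F2 (7) numbered 4 with no filter and 4 to 9 with a follicle left out (4 without F2 replicate 1). The cause of these changes was not tested. With the replicate number as a block (replicate block), the log2 difference was 5.96 for FSHR, 5.05 for LHCGR, 6.11 for TRIB2 and 2.39 for GJA1, 578 probes and 11 and 9 list genes were called, and no call of the 4 genes changed. The numbers are not known to pair follicles, and deviations from the group means correlated by 0.039 and 0.13 for the same numbers. Signals near background limit LHCGR in every follicle and FSHR in the F2, and saturation limits TRIB2 in the F1 and GJA1 in F1 replicate 3.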
